A study of Homo sapiens with 20 samples.

Results

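The genes described here are 8 p53 target genes of cell death: BBC3, PMAIP1, BAX, FAS, TNFRSF10A, TNFRSF10B, TP53I3 and AEN. They are 8 of 20007 protein-coding genes in the hg38 GENCODE annotation. They were chosen by name, as p53 death genes and death receptors, and not by a measured value. Earlier results of these data were known when the choice was made. H3K27ac ChIP-seq peaks and super-enhancers (SEs) were assigned to a gene when they overlapped its body or the 10 kb on either side, called its window below. H3K27ac is acetylation of histone H3 at lysine 27, a mark of active promoters and enhancers, and an SE is a cluster of stitched peaks with high summed signal.

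All libraries came from HCT-116, an established line from a human colorectal carcinoma. They were wild type (WT) or carried a knockout of FBXW7 (KO), the substrate receptor of a ubiquitin ligase, and were transfected for 48 h with esiRNA, a mixture of short silencing RNAs, directed against HDAC4 (esiHDAC4), a class IIa histone deacetylase, or with control esiRNA (esiCT). Over the last 24 h they received 50 µM oxaliplatin (OXPT), a platinum drug that damages DNA, or were left untreated (UNT). The 8 combinations of genotype, esiRNA and drug had 2 libraries each, replicates A and B, which gave 16 libraries and 8 against 8 in each overall comparison. The labels state that chromatin of several independent experiments was combined, so the spread between A and B libraries may be partly technical. The knockout and wild type cells came from 1 supplier, and the sources used here do not say whether the knockout is a single clone.

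The libraries differed widely in size. They held from 1752 to 27927 peaks, 271550 in all, with 8295 SEs. The smallest was the KO esiHDAC4 UNT B library, and the other KO B libraries held 6084, 6126 and 8216 peaks. As a check of the cell type, the epithelial genes KRT8 and KRT18 had a peak in 16 libraries, EPCAM and KRT19 in 15, CDX2 in 11 and CDH1 in 10, while VIL1 had one in 1, CDX1 in 2 and KRT20 in none. Of the fibroblast genes COL1A2 and DCN had none, PDGFRA was marked in 1 and COL1A1 in 12. Of the leukocyte genes CD3E had no peak and PTPRC was marked in 2 libraries. The endothelial genes PECAM1 and CDH5 were marked in 11 and 12, but neither had a peak at its own start site in any of the 16 libraries.

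p53 is a transcription factor that is stabilised after DNA damage and binds a response element made of a pair of half-sites near its target genes. BBC3 (PUMA) and PMAIP1 (NOXA) encode BH3-only proteins that release the mitochondrial effector BAX. FAS, TNFRSF10A (DR4) and TNFRSF10B (DR5) are death receptors of the cell surface, which recruit FADD and caspase-8 when bound by Fas ligand or TRAIL. TP53I3 (PIG3) is a quinone oxidoreductase linked to oxidative stress, and AEN is a nuclease that digests nucleic acids in apoptotic cells.

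The sequences below are shown because they let the position of each peak be read against a match to the p53 element in the same gene. Both strands within 1 kb of each canonical start site were searched for 2 adjoining p53 half-sites, 20 bp together, with no spacer and with the central C and G of each half-site kept. With at most 2 mismatches to the p53 consensus a match was found at 5 of the 8 genes (PMAIP1, BAX, FAS, TNFRSF10B and AEN), against 1.38% of all 20007 protein-coding genes. With at most 3 mismatches it was found at 7 of 8, adding BBC3 and TP53I3, against 7.27% of all genes, and none was found at TNFRSF10A. In the lines below, which give hg38 bases 5′ to 3′ on the strand of the gene, the match is in capitals and its flanks are in lower case.
PMAIP1: tttctGGGCTTGTTTACCCAAGTCTctaat
BAX: cccccGGGCAGGCCCGGGCTTGTCGcccgc
FAS: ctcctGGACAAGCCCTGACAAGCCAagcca
AEN: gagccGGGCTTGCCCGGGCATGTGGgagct
BBC3: cgcgcCTGCAAGTCCTGACTTGTCCgcggc
TP53I3: gcaccCAGCTTGCCCACCCATGCTCaagat

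The PMAIP1 match lies at chr18:59899549-59899568 on the plus strand, at -437 bp from the start site (upstream), and was under a peak in 5 libraries. The BAX match at chr19:48955213-48955232, plus strand, lies 348 bp downstream of the start and was under a peak in 13. The FAS match at chr10:88991309-88991328, plus strand, lies 521 bp downstream and was covered in 9, and that of TNFRSF10B, 399 bp downstream on the minus strand, was covered in 10. The downstream matches of BAX, FAS and TNFRSF10B were thus under an H3K27ac peak in most libraries. The AEN match at chr15:88621306-88621325, plus strand, lies at -24 bp from its start and was covered in 0 libraries, since every AEN peak near the start began downstream of it. BBC3 (chr19:47231320-47231339, minus strand, at -131 bp) and TP53I3 (chr2:24085165-24085184, minus strand, at -341 bp) had 3 mismatches, and peaks covered them in 2 and 3 libraries. PMAIP1 and BAX each had a further upstream match with 3 mismatches, not shown above. That of PMAIP1 (chr18:59899811-59899830, at -175 bp) was under a peak in 1 library. That of BAX (chr19:48954455-48954474, at -410 bp) was under a peak in 2. A match of letters is a description, and no binding of p53 was measured in the data analysed here.

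All 8 genes carried H3K27ac in most libraries. A peak lay in the window in 12 (FAS), 13 (TP53I3), 14 (BBC3, PMAIP1, TNFRSF10A and TNFRSF10B), 15 (AEN) and 16 libraries (BAX), a frequency of 12 or more that 29.0% of all protein-coding genes reached. Of the 128 pairs of a gene and a library, 112 had a peak, and in 95 of these the strongest peak was closer to the start site of the gene itself than to that of any other protein-coding gene. The windows held 290 peaks in all. The value used below is the fold of a peak, that is, its height at the summit over the local background as the peak caller gave it. The strongest peak of a member rested on 7 to 33 reads at the summit, median 20. For the AEN peak of 23 reads in the KO esiHDAC4 OXPT B library the exact Poisson 95% interval was 14.6 to 34.5 reads, and for the AEN peak of 11 reads in KO esiCT OXPT B it was 5.49 to 19.7. These intervals cover counting error only, and differences of a fold unit between single libraries were within them.

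**Figure D1:**
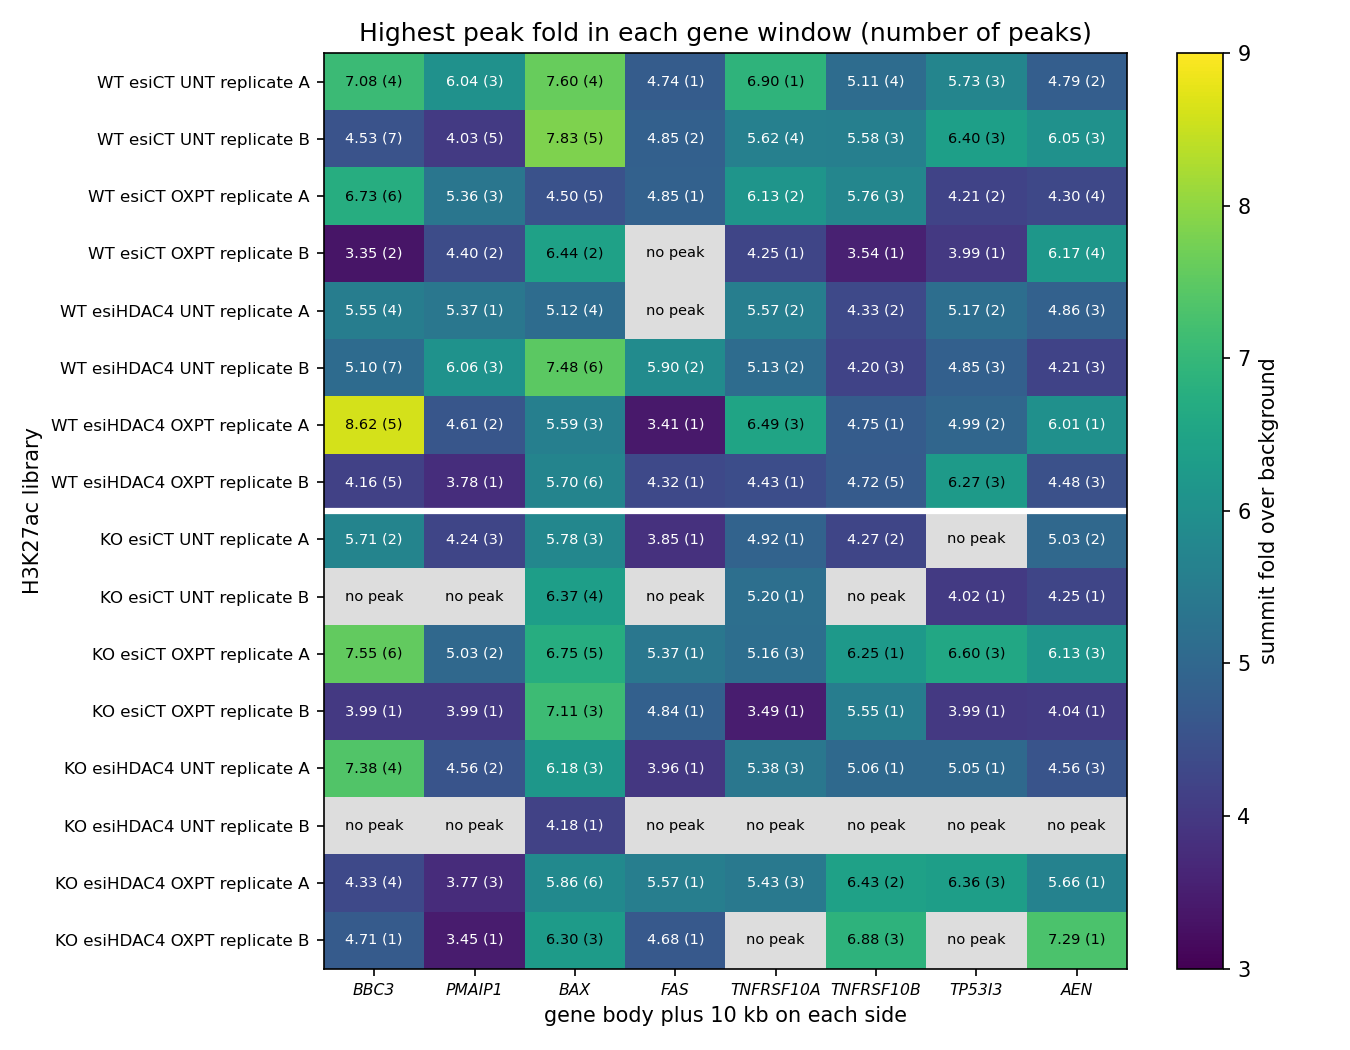
Highest peak fold over background in the window of each of the 8 genes (columns) in each H3K27ac library (rows), with the number of peaks in parentheses and grey cells where no peak was listed. WT libraries are above the white line and KO libraries below it; BAX had a peak in all 16 libraries, and the KO esiHDAC4 UNT B library had a peak at BAX alone.

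Among the mitochondrial genes, BAX was the most regularly marked, with a median highest fold of 6.24 (range 4.18 to 7.83, n = 16). Its window reaches the start site of FTL, the ferritin light chain, 10.4 kb downstream. The region there (chr19:48960922-48965085) was called in all 16 libraries at 3.90 to 7.83 fold, while the region at the start of BAX itself (chr19:48954884-48956642) was called in 14, at 3.21 to 6.75 fold. The strongest BAX peak was nearest to the start of BAX in 9 of 16 libraries.

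BBC3 (chr19:47220822-47232766, minus strand) had 58 peaks over the 16 libraries, more than any other member but BAX with 63. Its highest fold ranged from 3.35 to 8.62, median 5.32 over 14 libraries. The region at the start (chr19:47229990-47234007) was called in 14 libraries, a second 3.37 kb inside the gene (chr19:47226354-47228931) in 11, and an element upstream, at -9.64 kb (chr19:47240376-47241142) in 7. The strongest BBC3 peak moved between these elements: in WT esiHDAC4 OXPT A it was near the start at 8.62 fold, the 99.9th percentile of all peaks of that library, and in KO esiCT OXPT A, KO esiHDAC4 UNT A and WT esiCT UNT A it was at the element inside the gene, at 7.55, 7.38 and 7.08 fold.

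PMAIP1 had the lowest median fold of the 8 genes, 4.48 (range 3.45 to 6.06, 14 libraries). Its start region (chr18:59898769-59902013) was called in 14 libraries, and a downstream element 10.0 kb from the start (chr18:59909590-59910845) in 5, of which 4 were WT and 4 were UNT. PMAIP1 and BBC3 were the only members with an SE in the window, in the same 2 libraries, WT esiCT UNT B and WT esiHDAC4 UNT B; any SE lay in the window of 8.08% of all genes in at least 1 library. Neither SE covered the start site. At BBC3 they spanned 4.395 and 4.304 kb upstream of the gene (chr19:47240729-47245123 and chr19:47240706-47245009), and at PMAIP1 9.72 and 10.6 kb downstream of the gene (chr18:59908621-59918338 and chr18:59908645-59919229). These 2 libraries held 1265 and 771 SEs, against 66 to 930 in the other 14.

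Among the death receptors, TNFRSF10A had a median highest fold of 5.29 (3.49 to 6.90), TNFRSF10B 5.08 (3.54 to 6.88), both over 14 libraries, and FAS 4.79 (3.41 to 5.90) over 12. FAS had the fewest peaks, 14 in all. All but 2 of them lay in 1 region (chr10:88990220-88992177), which also holds a start site of ACTA2, smooth muscle actin, 0.534 kb from that of FAS. For FAS the nearest start was its own in 7 of 12 libraries, so the mark cannot be given to one of the 2 genes. TNFRSF10B, whose region at the start was called in 13 libraries, also had a pair of regions beyond its 3′ end, 54.8 and 54.1 kb from the start. They were called in 2 libraries each and in OXPT libraries alone, the first in WT and the second in KO cells. Their folds were low, at 3.54 to 4.72 and 3.36 to 4.46, and both calls of the second were in esiHDAC4 libraries. With so few libraries these regions were not tested.

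TP53I3 had a median highest fold of 5.05 (3.99 to 6.60, 13 libraries). Its peaks lay a median of 1.15 kb downstream of the canonical start, and 2 further regions in its window, called in 6 libraries each, lay at the starts of SF3B6 and FAM228B. AEN had a median of 4.86 (4.04 to 7.29, 15 libraries). Its start region (chr15:88621330-88623180) was called in 14 libraries, and a region 17.3 kb downstream, at the start of ISG20, in 9.

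**Figure D2:**
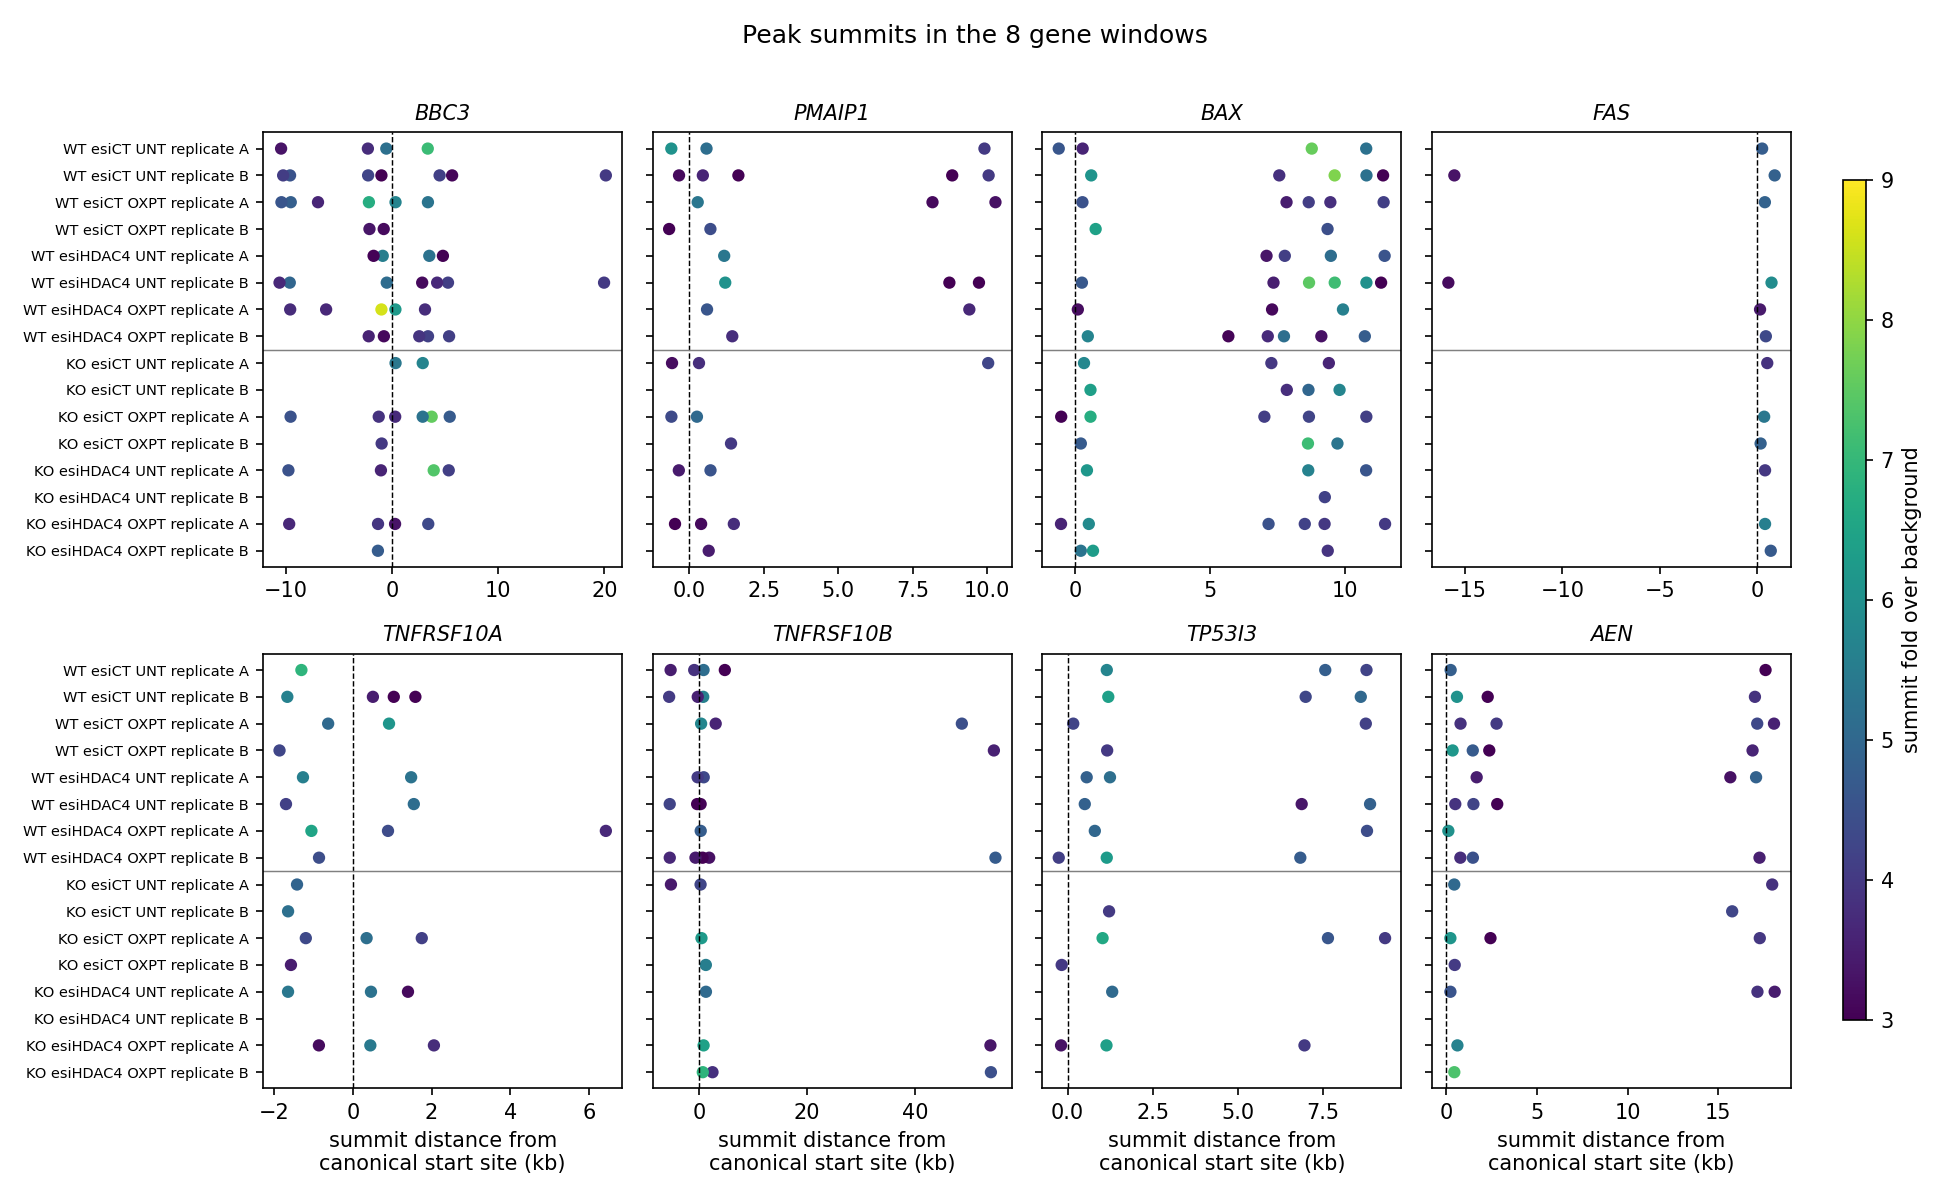
Position of every peak summit in the windows of the 8 genes, as distance in kb from the canonical start site (dashed; negative values are upstream), for each library (rows), coloured by fold over background. Summits gathered within about 1 to 2 kb of the start in each panel, with further clusters at the FTL start in the BAX window, on both sides of the start at BBC3, and downstream at PMAIP1.

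The order of the 8 genes by median fold was BAX, BBC3, TNFRSF10A, TNFRSF10B, TP53I3, AEN, FAS and PMAIP1, from 6.24 to 4.48, and the ranges of all 8 overlapped. The median over the 10411 genes tested was 4.65. Of the 38 peak regions in the 8 windows, 12 were called in 8 or more libraries and 11 in a single library.

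How many peaks the 8 genes had in a library went with the size of that library. The 3 smallest libraries, KO esiHDAC4 UNT B, KO esiHDAC4 OXPT B and KO esiCT UNT B, had 1, 10 and 7 member peaks, and WT esiCT UNT B, with 25333 peaks in all, had 32. Per 10000 peaks of the library the members had 5.71 to 16.4 peaks. Among libraries of like size the start sites differed: KO esiCT UNT B (6126 peaks) had a start-site peak at 2 of the 8 genes, KO esiHDAC4 OXPT B (6084 peaks) at 6 and KO esiCT OXPT B (8216 peaks) at 6. Whether library size set the differences between groups given below was not tested.

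**Figure D3:**
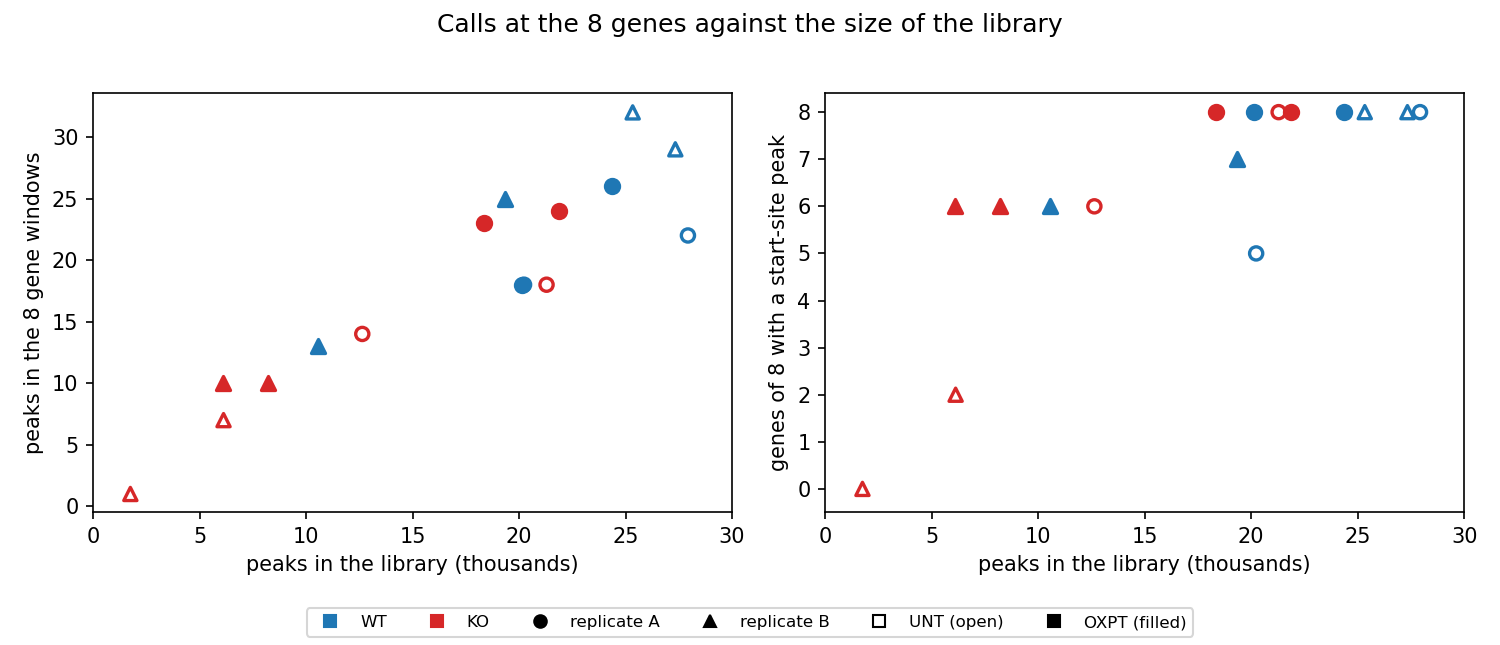
Number of peaks in the 8 gene windows (left) and number of the 8 genes with a peak within 1 kb of a start site (right) against all peaks of the library, 1 symbol per library, by genotype (colour), replicate (shape) and treatment (filled OXPT, open UNT). Both rose with library size, from 1 peak and 0 genes in the library of 1752 peaks to 32 peaks and 8 genes in larger ones.

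The first comparison asked whether loss of FBXW7 changed H3K27ac at these genes. In gene windows no member differed between KO and WT in the limma test on log2 fold, adjusted over 10411 genes, of which 18.6% were called, all but 1 of them lower in KO. The fold was centred on the regions called in all 16 libraries, and a window without a peak was given the lowest fold of its library. The median difference over all genes was -0.51 on the log2 scale, and the members lay from -0.65 (TP53I3) to 0.06 (FAS), median -0.30. A difference above 0 was found for 2 of 8 members, FAS and BAX, and for 6.90% of all genes. The smallest p-values by limma were those of PMAIP1, at -0.57 (SE 0.27, adjusted p = 0.113), and TNFRSF10A, at -0.56 (SE 0.28, adjusted p = 0.134). The lowest, median and highest fold of PMAIP1 were 3.78, 4.99 and 6.06 in 8 WT libraries and 3.45, 4.12 and 5.03 in the 6 KO libraries with a peak, so the groups overlapped, and 2 KO libraries had none.

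The background reads of the KO B libraries were the lowest, and the genotype difference was mostly in the B libraries. In the A libraries alone the median member difference was 0.00 (4 of 8 above 0) against -0.17 over all genes, and in the B libraries alone -0.61 (0 of 8 above 0) against -0.84. The lowest background at a peak was 1.02 to 1.51 reads in KO B libraries, 1.97 to 3.07 in WT B, 1.52 to 2.89 in KO A and 1.65 to 2.199 in WT A. With windows without a peak left as missing, the member median was -0.02 and that of all genes -0.08, again with no member called.

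At the start sites (within 1 kb), TNFRSF10A was the only member called, lower in KO. It had a start-site peak in 8 of 8 WT libraries, at 4.25 to 6.90 fold with a median of 5.60, and in 3 of 8 KO libraries, at 5.16, 5.43 and 5.38 fold. KO libraries with a peak were thus within the WT range, and the difference lay in the 5 without one. The log2 difference was -1.19 (SE 0.31, limma adjusted p = 0.00435), with 24.3% of 7428 start sites called and 24.2% lower in KO, against a median of -0.54 over all of them. In 3 of those 5 KO libraries a peak began just past the 1 kb limit, at 1038, 1211 and 1347 bp. In the merged region that takes in these peaks TNFRSF10A was called in 6 KO libraries and differed by -0.56 (SE 0.28, limma adjusted p = 0.148). The start-site call was also lost in the A libraries alone (-0.66, limma adjusted p = 0.417) and without the replicate as a block (adjusted p = 0.0808).

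In peak regions, 0 of the 12 member regions tested differed between KO and WT, with 19.4% of 10762 regions called. The number of peaks per window was lower in KO for every member, though no gene passed the exact permutation test within replicate letters (0% of 10411 genes; 3177 had an unadjusted p under 0.05). BBC3 had the smallest p of the members, with 2 to 7 peaks in WT libraries (mean 5.00) and 0 to 6 in KO (mean 2.25; exact p = 0.0208, adjusted p = 0.115), and AEN had means of 2.875 and 1.5 (exact p = 0.0424, adjusted p = 0.151). Scaled per 10000 peaks of the library, BBC3 had 2.27 in WT and 1.41 in KO (exact p = 0.0367, adjusted p = 0.249). BAX was higher in KO on this scale, at 3.77 against 2.01 (exact p = 0.00367, adjusted p = 0.107), but not unscaled (means 3.5 in KO, 4.375 in WT). In the smallest library, KO esiHDAC4 UNT B, its single peak alone came to 5.71 per 10000. No gene was called by the scaled exact test, and 1809 of 10411 had an unadjusted p under 0.05. With windows of 50 kb on either side, PMAIP1, TNFRSF10B and TP53I3 had fewer peaks in KO (adjusted p by the exact test 0.0440, 0.0472 and 0.0440), as had 1701 genes called of 13778.

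Presence of a peak could be tested only for FAS and TP53I3. TP53I3 had a peak in 8 WT and 5 KO libraries (two-sided exact p = 0.214, with an adjusted p of 0.453), and FAS in 6 of each, and 0% of 11064 genes were called for genotype, drug or esiRNA (1627, 93 and 11 at an unadjusted p under 0.05). For SEs 0% of 739 genes were called in the 3 comparisons (47, 10 and 1 at an unadjusted p under 0.05 by the exact test), and the SEs of BBC3 and PMAIP1, in 2 WT and 0 KO libraries, were in too few libraries to be tested.

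**Figure D4:**
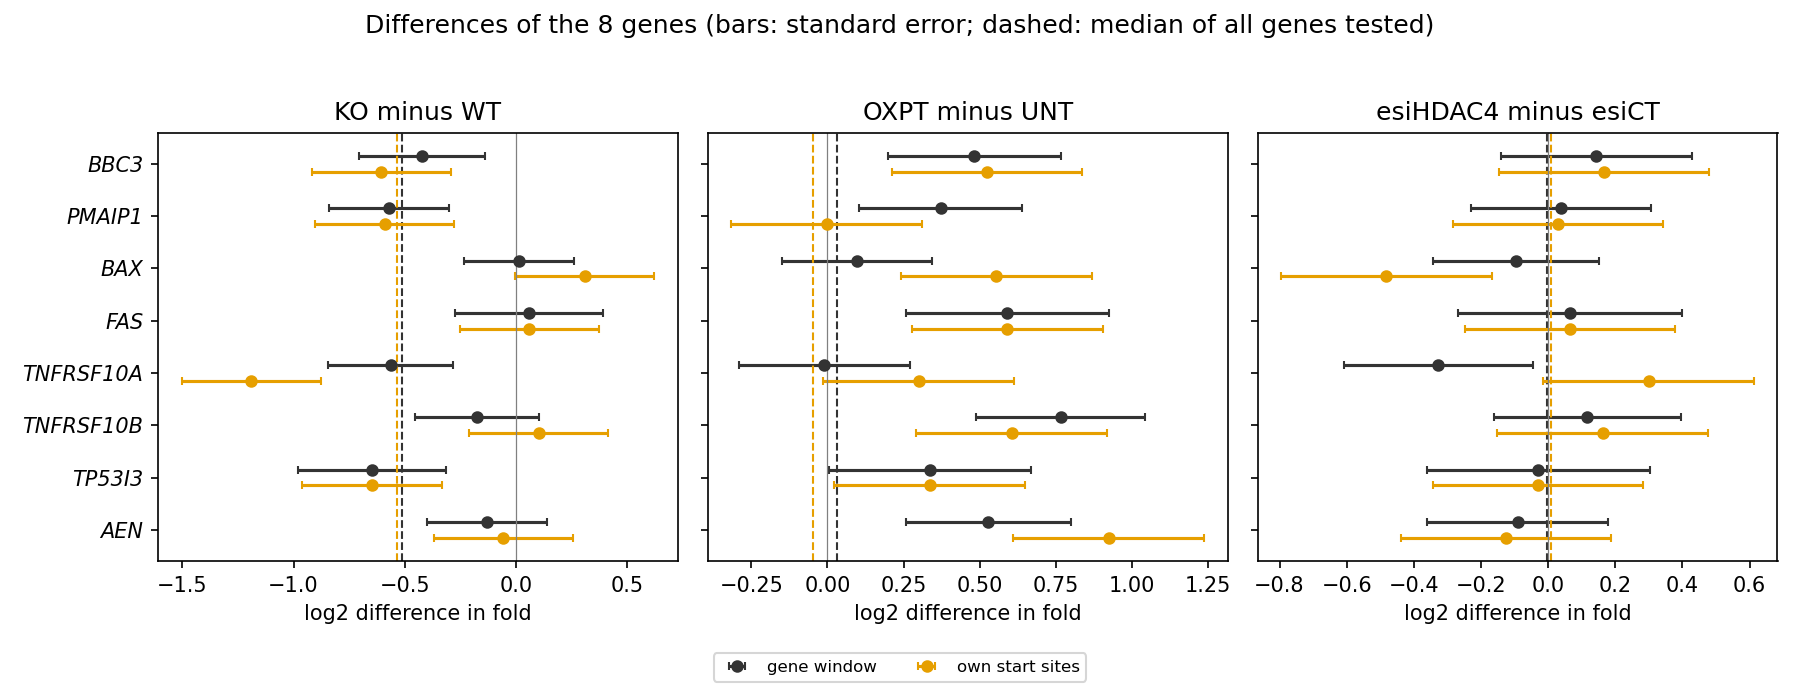
Log2 difference in centred fold for the 8 genes in 3 comparisons over 16 libraries, in gene windows (dark) and at the start sites (orange), with standard errors as bars and the median of all genes tested as dashed lines. TNFRSF10A at its start sites in KO minus WT, at -1.19, is the one point that passed the test.

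The second comparison asked how 24 h of oxaliplatin changed the mark. No member passed the limma test, in a comparison where 0.00961% of the 10411 gene windows (1 gene) and 0% of the start sites were called. At an unadjusted p under 0.05 there were 443 windows and 299 start sites, among them 1 member each, TNFRSF10B and AEN. The log2 difference OXPT minus UNT in gene windows was above 0 for 7 of 8 members and for 54.7% of all genes, with a member median of 0.43 against 0.03. The centring bears on these values. The median fold of the common regions was lower under OXPT in WT esiCT cells (7.37 and 6.68 in UNT, 5.54 and 5.09 in OXPT libraries) and WT esiHDAC4 cells (6.36 and 6.32, 5.65 and 5.47), higher in KO esiCT cells (6.06 and 5.71, 6.33 and 6.11), and overlapping in KO esiHDAC4 cells (6.30 and 5.21, 5.43 and 5.42). At the start sites it was above 0 for 7 of 8 members and for 43.9% of all genes, with medians of 0.54 and -0.05. Without the centring, window differences were above 0 for 6 of 8 members and 34.1% of all genes, with medians of 0.28 and -0.12. Where windows without a peak were left as missing, 8 of 8 were above 0, with medians of 0.17 and 0.03 and 0% of 6749 genes called; 0% of 4115 start sites were called in that way.

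TNFRSF10B, the TRAIL receptor DR5, had the smallest p-value in gene windows. Its highest fold in OXPT libraries was 5.76, 3.54, 4.75 and 4.72 in WT cells and 6.25, 5.55, 6.43 and 6.88 in KO cells. In UNT libraries it was 5.11, 5.58, 4.33 and 4.20 in WT cells and 4.27 and 5.06 in the KO A libraries, with no peak in the KO B libraries. The 4 KO OXPT values were above both KO UNT values, while in WT cells the treatments overlapped. The log2 difference over all libraries was 0.77 (SE 0.28, limma adjusted p = 0.952), and with missing values left out 0.40 (SE 0.13, limma adjusted p = 0.405). In KO cells alone it was 1.23 with esiCT and 1.33 with esiHDAC4, with limma adjusted p = 0.632 and 0.764. In both, the UNT B library had no peak and took its lowest listed fold, 1.32 with esiCT and 1.54 with esiHDAC4. That value fixed the direction of the B comparison, and the size of these KO differences rests partly on it.

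AEN had the second smallest p-value in windows (0.53, SE 0.27, limma adjusted p = 0.998) and the smallest at start sites. At its start sites 8 of 8 OXPT libraries had a peak, at 3.80 to 7.29 fold with a median of 5.83. Of the UNT libraries 5 had one, at 3.89 to 6.05 fold with a median of 4.79. Relative to the common regions the OXPT library was the higher in 8 of 8 same-letter comparisons. Where the UNT library had no peak it took its lowest listed fold, which fixed the direction of that comparison. Without the scaling to common regions WT esiCT A went from 4.79 to 3.85 fold and WT esiHDAC4 B from 3.89 to 3.80. The letters were not shown to pair libraries. The log2 difference was 0.92 (SE 0.31, limma adjusted p = 1.00). In the WT esiHDAC4 UNT A library the AEN peak began 1403 bp from the start, so it counted as absent there. In the merged start region, which takes that peak in at 3.49 fold, the difference was 0.78 (SE 0.30, limma adjusted p = 0.585), with 0.558% of the 10762 regions called and 0 of 12 member regions.

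FAS was called in 7 OXPT and 5 UNT libraries (exact p = 0.571, adjusted p = 1.00), with medians of 4.84 and 4.74 fold, and differed by 0.59 in windows. BBC3 and PMAIP1 each had a window peak in 8 OXPT and 6 UNT libraries, but where a peak was present the median fold of BBC3 was 4.52 in OXPT and 5.63 in UNT libraries and that of PMAIP1 4.20 and 4.96. Both UNT libraries without a peak were KO B libraries. The fitted differences of these 2 genes in windows were 0.48 and 0.37, and 0.12 and 0.05 when libraries without a peak were left as missing (limma adjusted p = 0.917 and 0.979). BAX differed by 0.10 in its window and by 0.56 at its own start, where 8 OXPT and 6 UNT libraries had a peak. TP53I3 differed by 0.34 and TNFRSF10A by -0.01 in windows. The numbers of peaks per window differed by at most 0.375 between OXPT and UNT, with 0% of genes called by the exact test (115 at an unadjusted p under 0.05).

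**Figure D5:**
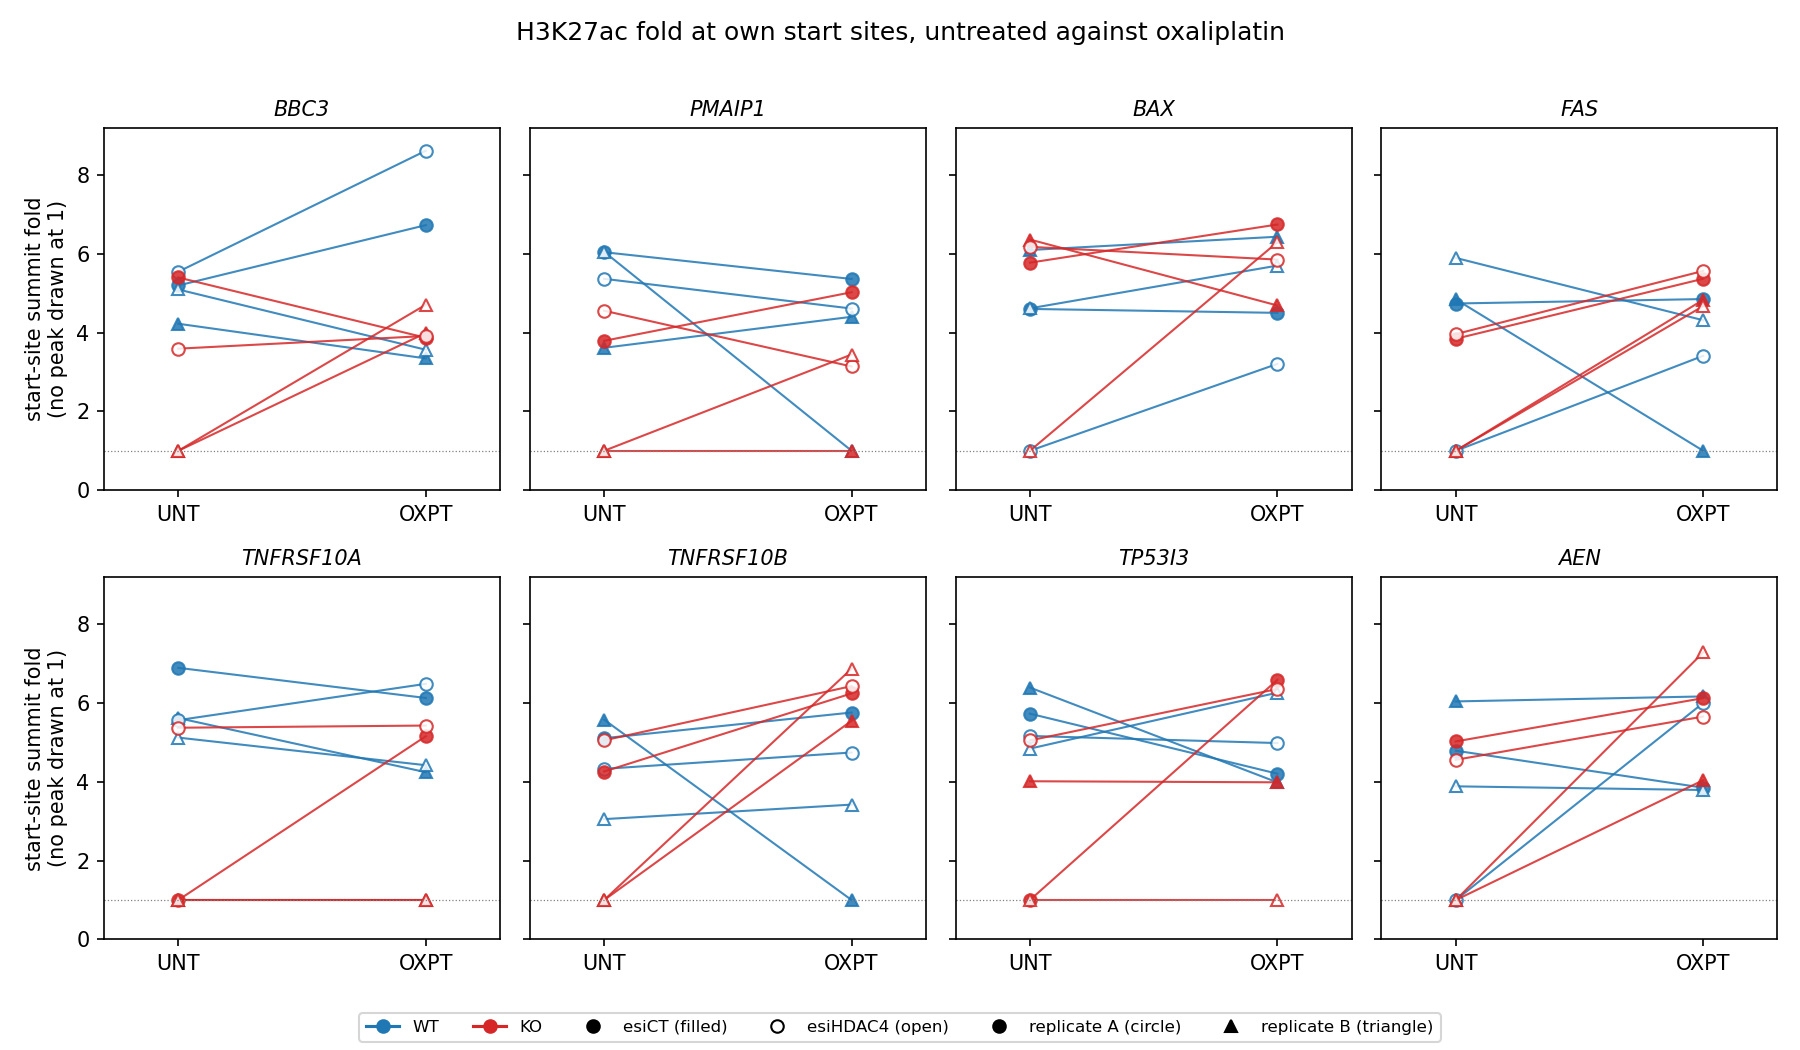
Fold over background of the highest peak within 1 kb of a start site in untreated (UNT) and oxaliplatin (OXPT) libraries, not centred, with lines joining libraries of the same genotype, esiRNA and replicate letter; libraries without such a peak are drawn at 1. AEN had a peak in 8 of 8 OXPT libraries against 5 of 8 UNT libraries. The KO lines of TNFRSF10B all pointed up, those of replicate B from UNT libraries without a peak, drawn at 1.

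Within each cell background, 0 members passed the limma test for oxaliplatin in WT esiCT, WT esiHDAC4, KO esiCT or KO esiHDAC4 cells, each with 2 against 2 libraries. Of all 10411 windows and 7428 start sites 0 were called in each of these contrasts and in the test of their difference given next, while 204, 317, 714 and 300 windows had an unadjusted p under 0.05. The test of whether the response differed between KO and WT cells given esiCT was also missed by every member. FAS had the largest such difference in windows (1.55, SE 0.94, limma adjusted p = 0.763), against a median of 0.52 over all windows. TNFRSF10B had the largest at start sites (1.72, SE 0.89, limma adjusted p = 0.692), against a median of 0.64 over all start sites. For TNFRSF10B the KO esiCT UNT B library had no peak and took its lowest listed fold. These contrasts share their control libraries with the overall comparisons, so they are no separate evidence.

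The third comparison asked whether silencing of HDAC4 changed the mark. The esiHDAC4 minus esiCT differences of the 8 genes in windows lay from -0.33 (TNFRSF10A) to 0.14 (BBC3), with a median of 0.00 and the same median over all genes. No member passed the limma test, and 0% of gene windows, start sites and regions were called. An unadjusted p under 0.05 was reached by 246, 154 and 315 of them, with 0 members. TNFRSF10A had the smallest p-value (-0.33, SE 0.28, limma adjusted p = 1.00), followed by BBC3 (0.14, SE 0.28, limma adjusted p = 1.00). TNFRSF10A had a window peak in 8 esiCT and 6 esiHDAC4 libraries, the reverse of its start sites, where 5 and 6 had one. The numbers of peaks were close in the 2 conditions, with means of 3.50 and 3.75 for BBC3 and 1.75 in both for TNFRSF10A, and 0% of genes were called by the exact test (17 at an unadjusted p under 0.05). At start sites in KO cells under oxaliplatin, esiHDAC4 minus esiCT was above 0 for 7 of 8 members, with a median of 0.32. Of all start sites 43.0% were above 0, with a median of -0.05. In windows 4 of 8 members were above 0, with a median of -0.04 against -0.03 over all genes. The start-site member median was -0.27 in WT UNT, 0.08 in WT OXPT and 0.21 in KO UNT cells. No member and 0% of windows and start sites were called in any of these contrasts. In KO cells under oxaliplatin the effect of esiHDAC4 differed from that in WT cells by -1.01 (SE 0.94) for TP53I3 and 0.62 (SE 0.76) for AEN, the largest differences in each direction in windows, with limma adjusted p of 1.00 for both.

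The wider pathway was described with 3 lists. Of 20 p53 targets of cell cycle arrest, repair and feedback, 18 were tested in windows. Under oxaliplatin 17 of 18 differences were above 0, with a median of 0.41 against 0.03 over all genes, and 0 passed the test. In KO against WT their median was -0.25, and RRM2B, a ribonucleotide reductase subunit for DNA repair, was lower (-1.02, SE 0.26, limma adjusted p = 0.0180). Of 12 other genes of the death receptor pathway 8 were tested, with an oxaliplatin median of 0.11, 6 of 8 above 0 and 0 called. FADD, the adaptor of the death receptors, was lower in KO (-0.93, SE 0.31, limma adjusted p = 0.0390), and the gene of Fas ligand, FASLG, had no peak. Of 14 other genes of mitochondrial apoptosis 11 were tested, with an oxaliplatin median of 0.15, 7 of 11 above 0 and 0 called. HRK had a window peak in 9 libraries but a start-site peak in only 2, and BCL2L11 in 8 and 8. In windows these BH3-only genes, HRK (-0.87, SE 0.28, limma adjusted p = 0.0371) and BCL2L11 (-0.81, SE 0.28, limma adjusted p = 0.0497), were lower in KO. These calls, 1 of 18, 1 of 8 and 2 of 11 genes of the 3 lists, stand beside 1938 of 10411 windows (18.6%) called over all genes. RRM2B and FADD had a window peak in 12 libraries each. Libraries without a peak took their lowest listed fold, so these differences mix absent peaks with lower ones. With such windows left as missing, 38 of 6749 windows were called in KO minus WT. Whether the listed genes were lower where a peak was present was not tested. For esiHDAC4 the medians of the 3 lists were 0.07, -0.03 and 0.10, with 0 called.

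As a description over the 16 libraries, the window fold of BBC3 followed that of PMAIP1 (Pearson r = 0.88), and the correlations among the 8 genes ran down to -0.08, between BBC3 and BAX. Libraries without a peak and library size are shared by all genes and enter these values. Among 484 genes with a peak in all 16 libraries, RHOF was the most like both BBC3 (r = 0.80) and PMAIP1 (r = 0.71), and ANXA2 was the most like TNFRSF10B (r = 0.76) and second for FAS (r = 0.75) after SYTL3 (r = 0.76). The nearest patterns for BAX, TNFRSF10A, TP53I3 and AEN were those of ANXA10 (r = 0.75), B9D1 (r = 0.75), DENND5B (r = 0.72) and CD109 (r = 0.68).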

How the data were processed

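H3K27ac ChIP-seq of 16 HCT-116 libraries was analysed. The submitters' notes name Trimmomatic 0.39 for trimming, Bowtie2 2.4.4 with build hg38 for alignment and SAMtools 1.18 for removal of duplicates; the authors called peaks with MACS2 2.2.7.1 and SEs with ROSE. The deposited peak files give fold over background (a ratio), −log10 p and q (the q-value filter is used in one alternative) and a score, and the deposited SE lists positions only. The study kept SEs where H3K4me1, an enhancer mark, was also present; whether the deposited lists carry that filter is not stated. Inputs were not used.

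The 8 genes and the lists were chosen with earlier results of these data known. Distances run from the GENCODE 44 canonical start, and no peak lay past the end of an hg38 chromosome. Summit reads were recovered from fold and −log10 p (tolerance 0.01) for 100% of peaks in 15 libraries and 96.8% in WT esiCT UNT B; depth is otherwise unknown, and raw coverage was not used. For each gene with a peak in at least 8 libraries the highest log2 fold was centred on the median of the 472 regions called in all 16 libraries. A library without a peak took its lowest listed fold. limma 3.58.1 (R 4.3.3) was fitted with group and replicate letter, as in the study's own design, and Benjamini-Hochberg adjusted p under 0.05 was called. At start sites limma gave every gene the same standard error. Presence and peak number had two-sided exact tests within letters (4900 arrangements, smallest p 0.000408; scipy 1.17.1). The tests were checked on simulated data. All 8 genes are named; of other contrasts the called members or the 2 smallest p are given. The letters were not shown to pair libraries. Some list genes are not reported here.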

Additional observations from a re-analysis of the deposited data

How the results depend on the processing

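Each alternative changed one choice. Those for start sites, the floor at the 5th percentile of fold and the A or B libraries alone were chosen after seeing the data. For the 8 genes 234 of 246 counts of called members and 390 of 407 single values kept their call and direction. With the main settings at most 0.558% of features were called for oxaliplatin and 0% for esiHDAC4. Member counts of 0 in these 2 comparisons could therefore hardly change, and their number says little on robustness. In KO minus WT windows 1 member was called with percentile ranks (PMAIP1, -37.7 points, limma adjusted p = 0.0412; 1952 of 10411 windows were called), and leaving out single libraries gave 0 to 1 (TP53I3, without KO esiHDAC4 OXPT A, -0.93, limma adjusted p = 0.0396; 2403 windows called). At start sites the count went from 1 to 0 with missing values left out, without the replicate block and in the A libraries alone (TNFRSF10A -1.19, limma adjusted p = 0.0808, and -0.66, adjusted p = 0.417), to 2 in the B libraries alone (2792 of 7428 start sites called), and from 1 to 2 on leaving out single libraries (TP53I3 added without KO esiCT UNT B, -0.91, or KO esiHDAC4 OXPT A, -0.93; 1469 and 1968 start sites called). With missing values left out, TNFRSF10A could not be fitted at start sites. Of 12 member regions 2 were called in the B libraries alone (3571 of 10762 regions) and 0 to 1 on leaving out single libraries (1 without WT esiHDAC4 OXPT A or KO esiHDAC4 OXPT A, with 2454 and 2197 regions called), and peak number gave 3 in windows of 50 kb (1701 of 13778 genes).

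Signs turned for 14 values, none of which was called. For esiHDAC4 TNFRSF10A was 0.0546 with missing values left out, 0.46 with peaks of −log10 q at least 5, 0.27 in the gene body and 0.0819 in the A libraries. BBC3 was -0.0713 in windows of 50 kb, -0.0183 in the A libraries and -0.0162 to 0.302 on leaving out single libraries (below 0 without KO esiCT UNT B, KO esiHDAC4 UNT A or KO esiHDAC4 OXPT B). For peak number under oxaliplatin BAX was -0.115 per 10000 peaks, -0.375 with the q filter and -0.0179 to 0.696 on leaving out single libraries (below 0 without KO esiHDAC4 UNT B), and TP53I3 -0.125 in windows of 50 kb and -0.25 with the q filter. The cause was not tested.

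Replicate letters did not clearly mark paired libraries: over 28 pairs of groups the deviations of same-letter libraries correlated at 0.0193 to 0.264, with a median of 0.109. Without the replicate block the genes called in KO minus WT fell from 1938 to 118 in windows, from 1806 to 31 at start sites and from 2091 to 618 in regions, and TNFRSF10A at its start sites was the only member whose call was lost. With missing values left out 38 windows and 71 start sites were called, and with the floor at the 5th percentile 754 and 482; of the members TNFRSF10A alone was called in these, at start sites with that floor (-0.42, limma adjusted p = 0.0433). At 7 to 33 reads for a member summit, a low peak and none cannot be told apart in the smaller libraries.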
